A study of Mus musculus with 14 samples.

Results

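The Hox genes lie in 4 clusters, Hoxa to Hoxd, and the peaks nearest to them were followed through 10 ChIP-seq peak lists from the mouse muscle cell line C2C12. A peak was taken as a Hox peak when the authors' annotation named as its nearest gene a symbol made of Hox, a cluster letter a to d and a number. Of 517058 listed peaks, 516975 carried a gene name and 365 named a Hox gene. These 365 peaks named 38 of the 39 Hox genes in the reference table (RefSeq, assembly GRCm38.p6, the build called mm10), and Hoxd4 was named by none. C2C12 is a myoblast line that fuses into myotubes when serum is lowered, and all libraries came from cells at day 2 of differentiation. The study concerned Myolinc, a long noncoding RNA, and what its loss does to chromatin binding by TDP-43, a protein that binds RNA and DNA. One arm, called siMyolinc, received a small interfering RNA against Myolinc at 10 nM, and the labels do not state whether control cells received a control siRNA. The antibodies were against TDP-43, elongating RNA polymerase II with phosphate on serine 2 of the tail (Pol II S2P), MyoD and Myogenin. Control TDP-43 was represented by 3 libraries and each remaining group by 1, all from 1 cell line, and nothing in the labels says that the 3 were separate cultures. Their spread may therefore be technical. Peak lists hold no transcript levels, so neither the knockdown nor the myoblast identity was checked here.

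Hox proteins are homeodomain transcription factors that give cells their position along the body axis. The order of the genes in a cluster follows the order in which they are used from head to tail: low-numbered (anterior) genes act in the hindbrain and neck, central genes in the trunk, and high-numbered (posterior) genes in the lumbar region, tail and distal limb. Clusters are rich in CpG islands and are classic targets of Polycomb silencing and Trithorax activation. In muscle, Hoxa11 and Hoxa13 are known from limb muscle precursors, and adult muscle stem cells keep Hox patterns of the body region they came from.

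The Hox promoters overlapped by all 3 control TDP-43 libraries were those of Hoxd10, a posterior gene used in lumbar motor neurons and limb, and Hoxc4, a central gene of the neck region. Their promoter windows, 250 bases before to 50 bases after the start, are shown because they are the Hox starts at which the separate libraries coincided. Both are from RefSeq (GRCm38.p6), plus strand, at chr2:74691641-74691940 for Hoxd10 and chr15:103034145-103034444 for Hoxc4. Capitals mark the matches to CANNTG, the E-box pattern that MyoD and Myogenin recognise.
Hoxd10: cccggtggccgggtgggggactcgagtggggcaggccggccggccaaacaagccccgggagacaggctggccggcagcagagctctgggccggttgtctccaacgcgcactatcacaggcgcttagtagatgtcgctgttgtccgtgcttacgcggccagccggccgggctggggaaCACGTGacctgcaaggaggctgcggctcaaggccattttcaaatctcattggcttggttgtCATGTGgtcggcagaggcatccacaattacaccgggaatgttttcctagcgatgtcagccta
Hoxc4: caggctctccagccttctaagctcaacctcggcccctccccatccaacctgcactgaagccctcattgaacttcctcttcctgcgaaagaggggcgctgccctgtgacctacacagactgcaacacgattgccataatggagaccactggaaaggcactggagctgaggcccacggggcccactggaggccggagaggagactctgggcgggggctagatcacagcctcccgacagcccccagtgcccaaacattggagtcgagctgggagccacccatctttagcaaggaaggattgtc
The Hoxd10 window held 2 E-boxes, CACGTG and CATGTG, and the Hoxc4 window held none. The Hoxd10 window had 62.7% G and C and 22 CpG dinucleotides, with an observed to expected CpG ratio of 0.754. The Hoxc4 window had 60.3% G and C, 9 CpG dinucleotides and a ratio of 0.333. The table of promoter windows had entries for 22 of the 39 Hox genes, in 24 windows. Among these 24, 17 held a CANNTG on either strand (70.8%), against 72.3% of all 32851 windows. CAGCTG, a form contained in CANNTG, was in 4 Hox windows (16.7%) and in 16.3% of all. The 6-base repeat TGTGTG or its complement CACACA, related to the UG-rich RNA that TDP-43 binds, was in 4 Hox windows (16.7%) and in 21.1% of all. Hox windows thus held these letters about as often as promoters at large. Their median G and C content was 57.7% against 52.7%, and their median CpG ratio 0.626 against 0.384.

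Each peak carried the authors' peak score. Within a list the scores, with the 1% highest set aside, were whole multiples of 1 step. The step is taken here as a single sequence tag, and dividing by it turns a score into tags. If scores are scaled to 10000000 tags, the control TDP-43 libraries held 962387 to 1394416 tags, and control Pol II S2P held 1455043. The remaining 6 held 3040130 to 3774953. For TDP-43 and Pol II S2P the siMyolinc library was also the deeper one, so the effects of knockdown and depth cannot be told apart there. The siMyolinc MyoD and Myogenin lists stood apart, with peaks of 75 bp against medians of 217 to 249 bp in the other 8, and with a median of 24 and 137 tags a peak. Hox peaks were as thin as other peaks. Their median was 7.5, 6 and 8 tags in control TDP-43 replicates 1 to 3, against 8, 6 and 6 over all peaks, and the strongest Hox peak there had 15 tags. Intervals below are 95% Wilson intervals for shares and exact Poisson intervals for tags. These reflect counting error alone, and copies made by PCR are not separate molecules.

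Hox genes took a larger share of the peaks in the control TDP-43 lists than in the MyoD and Myogenin lists. Replicates 1 to 3 of control TDP-43 held 42, 27 and 17 Hox peaks. These made 1.41 (1.05 to 1.91), 2.55 (1.76 to 3.71) and 2.08 (1.30 to 3.33) Hox peaks per 1000 named peaks. The siMyolinc TDP-43 list held 20, or 0.801 per 1000 (0.519 to 1.24), below each of the 3 controls, whose mean was 2.02 ± 0.573 (SD, n = 3). The control Pol II S2P list held 16 (1.49 per 1000, 0.919 to 2.42) and the siMyolinc list 74 (0.638, 0.508 to 0.800). Here the number of Hox peaks was higher after knockdown and their share of the list lower. MyoD had 36 in control (0.501, 0.362 to 0.693) and 68 after knockdown (0.621, 0.490 to 0.787). Myogenin had 53 in control (0.461, 0.352 to 0.603) and 12 after knockdown (0.587, 0.336 to 1.03). The 4 MyoD and Myogenin intervals overlapped one another, and none reached the lower bound of any control TDP-43 replicate. The control TDP-43 libraries were also shallower than the MyoD and Myogenin ones, so antibody and depth cannot be told apart in this contrast. The interval of siMyolinc TDP-43, a deeper library, overlapped all 4 MyoD and Myogenin intervals. With 3 control libraries against 1, an exact two-sided permutation test could not go below p = 0.25, and with 1 library in each condition for the other antibodies no test across libraries was made for any value here.

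**Figure D1:**
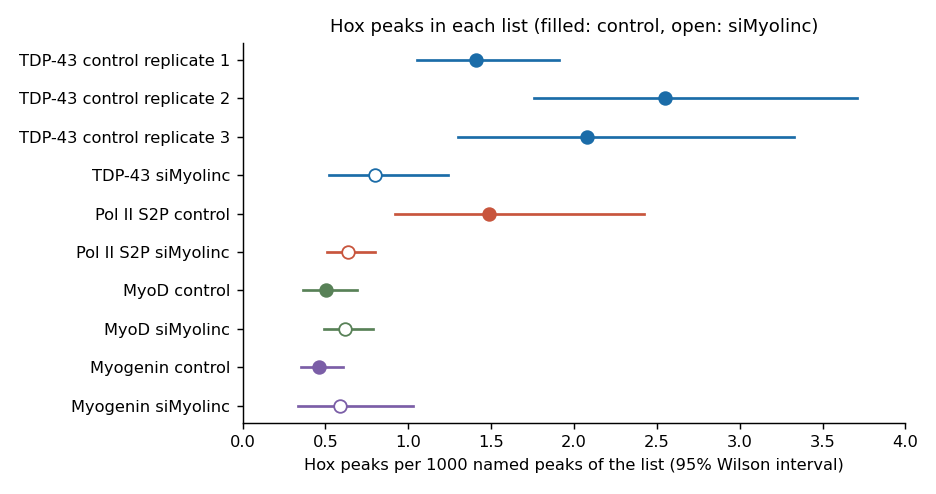
Hox peaks per 1000 named peaks (x axis) in each of the 10 lists (y axis); filled points are controls, open points siMyolinc, and bars are 95% Wilson intervals. The 3 control TDP-43 lists lie between 1.41 and 2.55, and the MyoD and Myogenin lists between 0.461 and 0.621.

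Each list held more peaks per length in the Hox clusters than over the genome. The cluster windows, from the outermost base of the first gene to that of the last, were 105514 bp long for Hoxa on chromosome 6 (11 genes), chr11:96194316-96368254 for Hoxb (173939 bp, 10 genes), chr15:102921131-103036856 for Hoxc (115726 bp, 9 genes) and chr2:74668225-74765142 for Hoxd (96918 bp, 9 genes). Peaks per 100 kb in the 4 windows together were 8.53, 5.69 and 4.27 in control TDP-43 replicates 1 to 3. These were 7.82 (5.64 to 10.6), 14.7 (9.74 to 21.2) and 14.2 (8.81 to 21.8) times the density of the same list over the genome. In the siMyolinc TDP-43 list the ratio was 3.55 (2.03 to 5.76). For Pol II S2P it was 7.23 (3.95 to 12.1) in control and 2.91 (2.22 to 3.73) after knockdown. MyoD gave 1.77 (1.12 to 2.66) and 3.13 (2.40 to 4.01), and Myogenin 1.44 (0.974 to 2.06) and 4.06 (2.27 to 6.70), in control and after knockdown. The ratio was lowest in control Myogenin, whose interval reached below 1. Of the Hox peaks themselves, 34 of 42, 22 of 27 and 14 of 17 lay inside the windows in control TDP-43 replicates 1 to 3, and 11 of 20 in siMyolinc TDP-43. In control Myogenin it was 21 of 53, so that most Hox peaks of that list lay outside.

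The intervals of the 4 clusters overlapped within each control TDP-43 list. In replicate 1 the ratio to the genome was 6.95 (3 to 13.7) at Hoxa, 6.32 (3.27 to 11) at Hoxb, 7.13 (3.26 to 13.5) at Hoxc and 12.3 (6.55 to 21.0) at Hoxd. In replicate 2 these were 14.6, 10.4, 17.8 and 18.6, and in replicate 3 they were 3.16, 13.4, 20.2 and 20.6. The value at Hoxd was the highest in each replicate, on 6 to 13 peaks, and its interval overlapped those of the other clusters each time. Over all 10 lists 144 Hox peaks named a Hoxc gene, 82 a Hoxa gene, 82 a Hoxb gene and 57 a Hoxd gene. By paralogue group, 99 named anterior genes (numbers 1 to 3, 8 genes), 122 central genes (4 to 8, 15 genes) and 144 posterior genes (9 to 13, 16 genes).

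**Figure D2:**
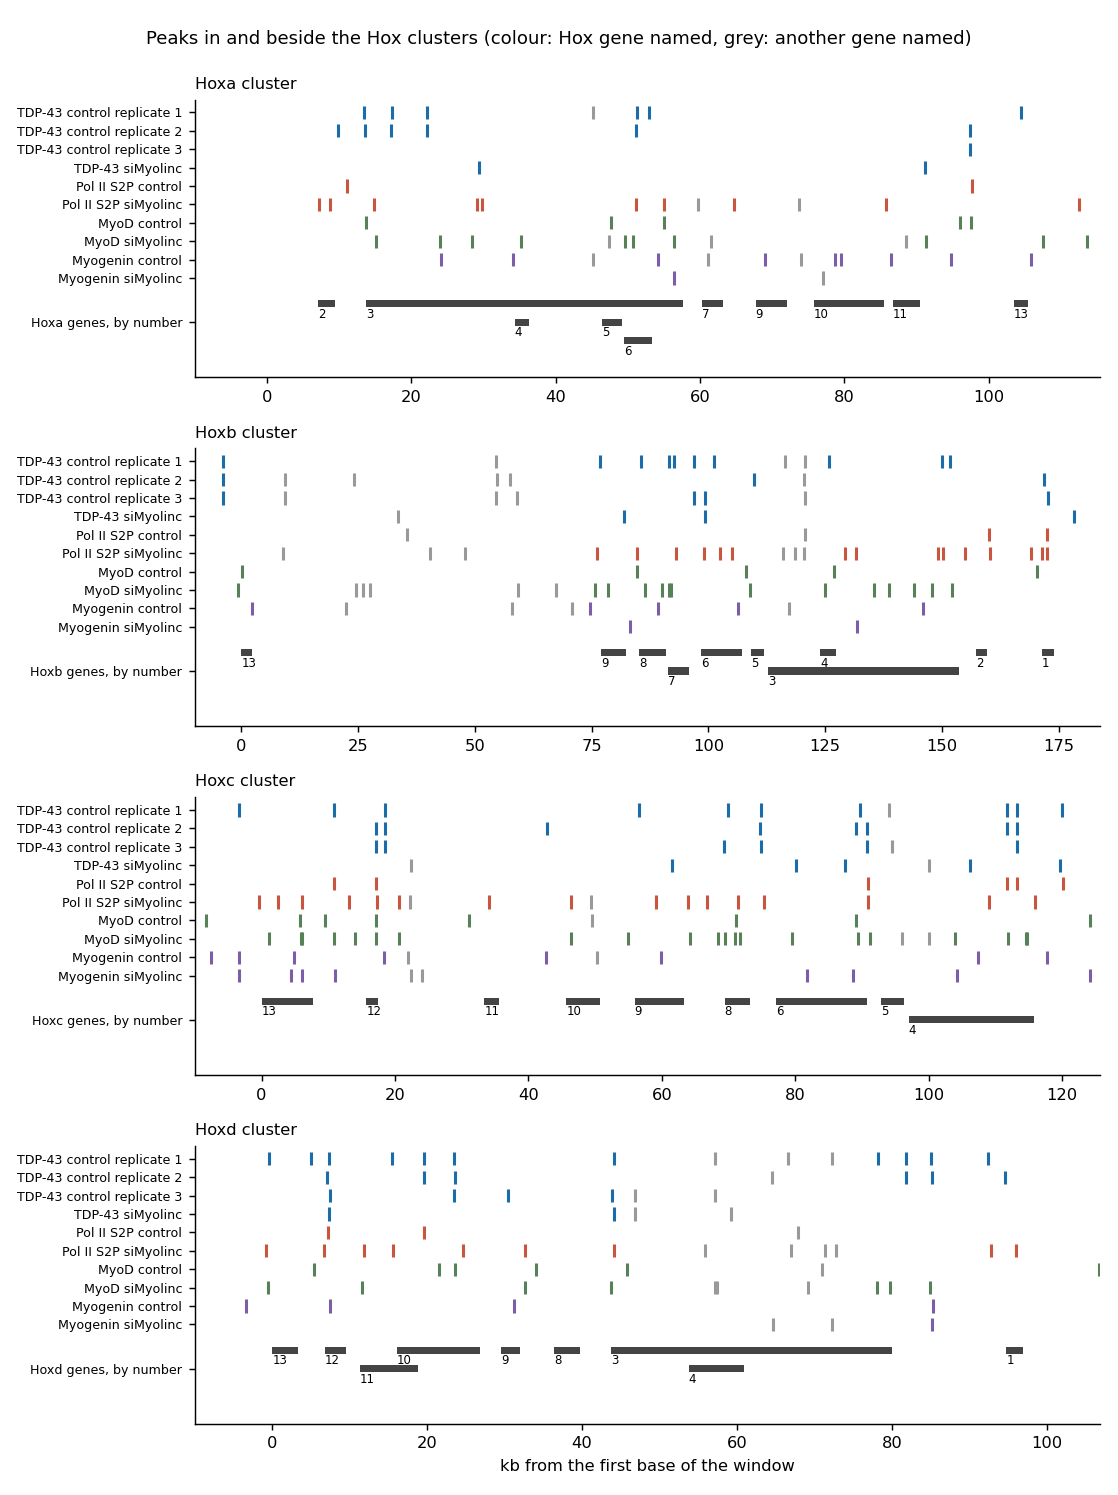
Peaks of each list (rows) along the 4 clusters (x axis, kb from the first base of the window), with 10 kb on either side and the Hox genes drawn to scale below; coloured marks name a Hox gene, grey marks, drawn inside the window only, name another gene, and 1 Hox gene and its peaks are not drawn. Marks stack at Hoxc12, at both Hoxc4 peaks near its start, at Hoxd12 and at Hoxd10 in the control TDP-43 rows, whereas the siMyolinc TDP-43 row shares few of them.

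Most of the distant Hox peaks named the genes at the ends of a cluster, to which the nearest-gene rule gives the peaks on the outer side. The 8 end genes, among them Hoxb1, Hoxb13, Hoxc4, Hoxc13 and Hoxd1, were named by 177 peaks, 128 of them more than 5000 bp from the start. The other 31 genes were named by 188 peaks, 34 of them beyond 5000 bp and the farthest at 12.7 kb. Hoxc13 reached out to 82.7 kb and Hoxc4 to 53.9 kb. In the control TDP-43 lists 73.8, 63.0 and 70.6% of the Hox peaks lay within 5000 bp of the named start, against 21.6, 24.4 and 24.8% of all peaks. In the siMyolinc TDP-43 list the share was 30.0% against 14.8%, so the mean of 69.1% ± 5.57 (SD, n = 3) in control was more than 2 times the value after knockdown. For Pol II S2P it was 62.5% in control, against 20.9% of all peaks, and 58.1% after knockdown, against 13.1%. MyoD had 47.2 and 55.9%, and Myogenin 41.5 and 58.3%, where all peaks of these 4 lists ranged from 9.97 to 15.7%. The cluster windows hold 39 genes in 492097 bp, so a peak inside them tends to be near a start with any antibody. Inside the windows lay 34 of 42, 22 of 27 and 14 of 17 Hox peaks in control TDP-43, and 11 of 20 after knockdown. How much of the shares within 5000 bp comes from this spacing was not tested.

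By annotation class, Hox peaks were lower than all peaks in repeats and introns in every list. They were higher in promoters in every list but siMyolinc Myogenin. The class can refer to a transcript of a gene other than the one named. Repeats held 2.38, 3.70 and 0% of the Hox peaks in control TDP-43 replicates 1 to 3, against 30.6, 30.0 and 27.4% of all peaks. Introns held 11.9, 7.41 and 5.88% of them, against 32.4, 28.1 and 27.4%. The promoter class (promoter-TSS, the authors' annotation) held 16.7% ± 6.05 of the Hox peaks in control TDP-43 against 4.84% ± 0.436 of all peaks (SD, n = 3 for both), and 10.0% against 2.53% after knockdown. Exons held 22.0% ± 4.28 in control and 5.00% after knockdown, and among all peaks 22.8% ± 3.59 and 6.93%. The lower exon share after knockdown was thus a feature of the whole list. For Pol II S2P the promoter share was 6.25% in control against 3.76% of all peaks, and 10.8% against 2% after knockdown. For MyoD it was 8.33% against 1.43% in control and 14.7% against 2.69% after knockdown. For control Myogenin it was 7.55% against 1.44%. None of the 12 Hox peaks of the siMyolinc Myogenin list was in the promoter class, against 3.10% of all its peaks.

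CpG islands held a larger share of the Hox peaks than of all peaks in 8 of the 10 lists. The annotation names a CpG island only where a peak is otherwise intronic or intergenic, so an island at a promoter or in an exon is not counted, and the shares understate overlap with islands. In control TDP-43 replicates 1 to 3, 5 of 42 (11.9%), 5 of 27 (18.5%) and 2 of 17 (11.8%) Hox peaks were so annotated, against 3.23, 5.07 and 5.07% of all peaks. The siMyolinc TDP-43 list had none among 20, which allows a share of up to 15.0% at 3 counts of the total (Wilson upper bound 16.1%), against a control mean of 14.1% ± 3.86 (SD, n = 3). A difference among Hox peaks was therefore not detectable at this depth, while the share over all peaks was 0.821% after knockdown and 4.46% ± 1.06 in control. Pol II S2P had 3 of 16 (18.8%) in control and 4 of 74 (5.41%) after knockdown, where all peaks had 3.26 and 0.452%. MyoD had 1 of 36 (2.78%) and 6 of 68 (8.82%), against 0.173 and 0.767%. Myogenin had none of 53 in control, which allows up to 5.66% on the same rule (Wilson upper bound 6.76%), and 2 of 12 (16.7%) after knockdown, against 0.226 and 1.09%. Of intronic and intergenic peaks alone, the shares in control TDP-43 were 21.7, 35.7 and 22.2% for Hox peaks against 4.51, 7.79 and 8.05% for all.

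**Figure D3:**
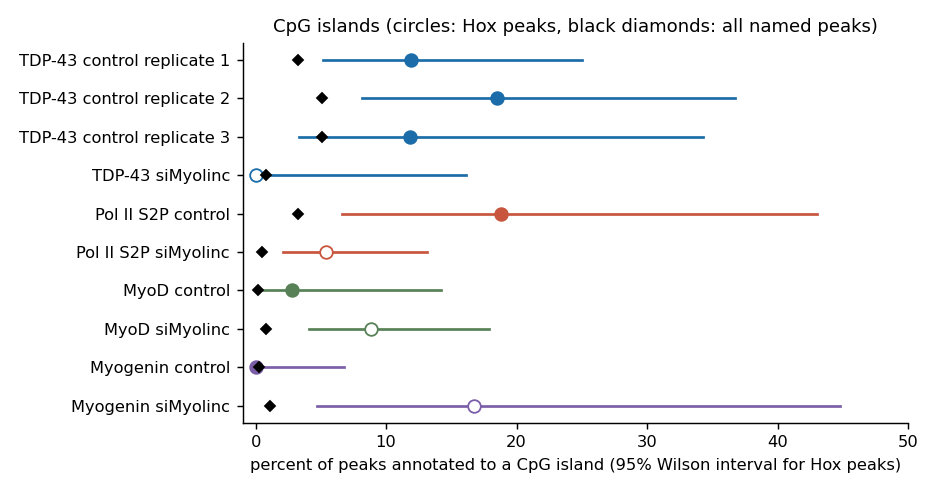
Percent of Hox peaks annotated to a CpG island (circles, with 95% Wilson intervals) and the same percent over all named peaks (black diamonds), by list; filled circles are controls and open circles siMyolinc. The circle is right of the diamond in 8 lists; the exceptions are siMyolinc TDP-43 and control Myogenin, both at 0%.

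Few islands gave most of these peaks. Of 28 Hox peaks in CpG islands, 7 named Hoxc4, 5 named Hoxd1, 4 named Hoxa11 and 2 each named Hoxa2, Hoxa3 and Hoxb3. The island 1.5 kb before Hoxc4 was listed in control TDP-43 replicate 1 with 6 tags and replicate 2 with 9 tags, and in control Pol II S2P with 13 tags (6.92 to 22.2). That peak, at chr15:103032755-103032979, was the strongest Hox peak of the control Pol II S2P list. The island 7.1 kb before Hoxa11, a gene of the forearm and limb muscle precursors, had 8 tags in control TDP-43 replicates 2 and 3 each, 5 in control Pol II S2P and 12 in control MyoD. The site with an island about 9.7 kb before Hoxd1, at chr2:74753079-74753595, had 8 and 15 tags in control TDP-43 replicates 1 and 2. It also had 12 tags in siMyolinc MyoD and 106 in siMyolinc Myogenin. Its control Myogenin peak, with 14 tags, was not annotated to the island. A second site 12.9 kb before Hoxd1 had 8 tags in replicate 1, annotated to an island, and 11 in replicate 2, not so annotated.

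Most Hox genes were named by some lists and not by others. Of the 39 genes, control TDP-43 replicate 1 named 24 (61.5%), where 46.5% of all 21900 protein-coding genes were named. Replicate 2 named 15 (38.5%) against 25.4%, and replicate 3 named 14 (35.9%) against 21.0%. The siMyolinc TDP-43 list named 14 (35.9%) against 42.5%. In the controls the Hox share was above that of all genes, and after knockdown below it. Control Pol II S2P named 10 (25.6%) against 25.2%, and siMyolinc Pol II S2P 31 (79.5%) against 72.3%. Control MyoD named 21 (53.8%) against 61.0%, and siMyolinc MyoD 28 (71.8%) against 71.1%. Control Myogenin named 22 (56.4%) against 68.8%, and siMyolinc Myogenin 8 (20.5%) against 37.4%. For Pol II S2P and MyoD the Hox share was above that of all genes in 3 lists, by under 1 percentage point in 2 of them, and below it in control MyoD. For Myogenin the Hox share was below that of all genes in both lists.

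**Figure D4:**
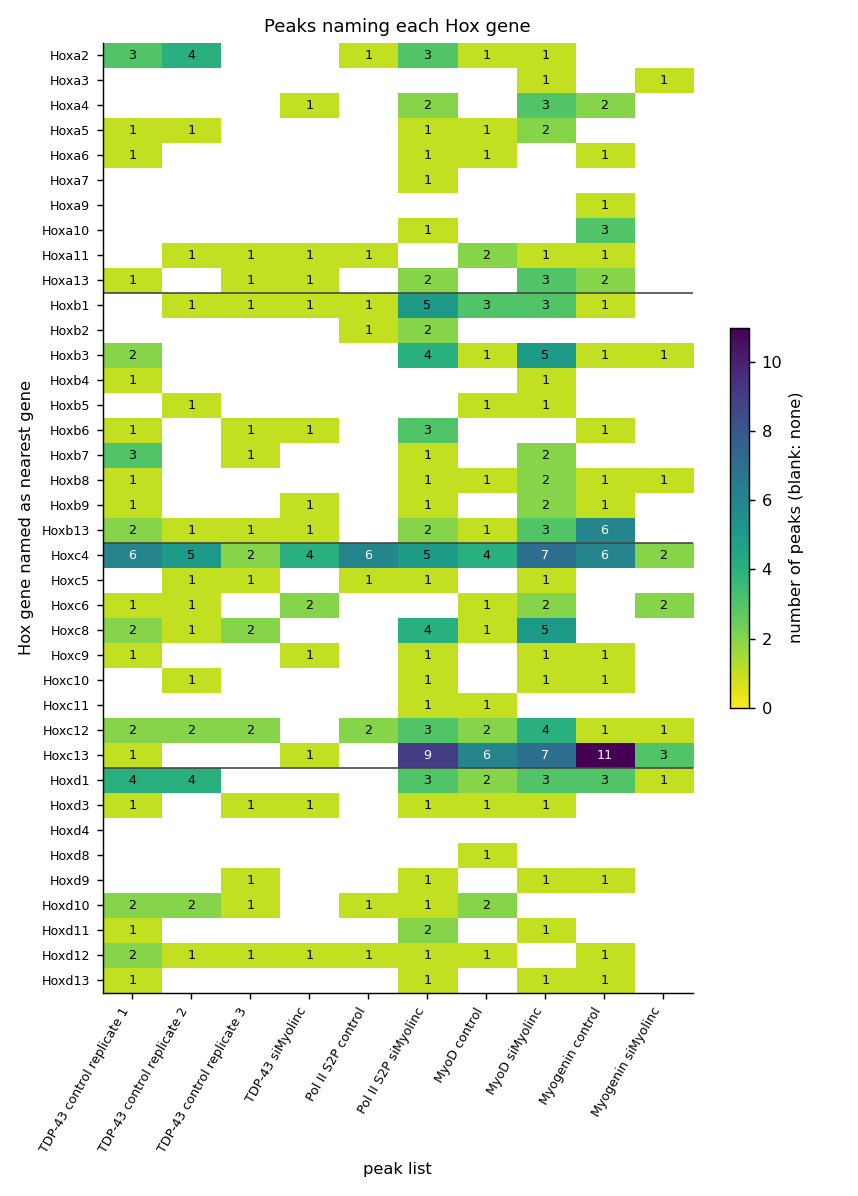
Number of peaks naming each of 38 Hox genes (rows, by cluster and number) in each list (columns); blank cells have none. The Hoxc4 row is filled in all 10 lists, Hoxc13 reaches 11 peaks in control Myogenin, and the Hoxd4 row is blank.

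Among the anterior genes, Hoxb1 and Hoxd1 were named in many lists. Hoxb1, which marks one hindbrain segment, was named in 8 lists by 16 peaks, 7 of them within 5000 bp. Its exon site 1.1 to 1.2 kb into the gene had 7 tags in control TDP-43 replicate 3, 5 in control Pol II S2P and 10 in siMyolinc Pol II S2P. Hoxd1, known in mouse for a role in pain-sensing neurons, was named in 7 lists, by 4 peaks in each of control TDP-43 replicates 1 and 2 and by none in replicate 3 or in siMyolinc TDP-43. Hoxa2, which patterns the second pharyngeal arch, was named by 3 and 4 peaks in the same replicates and likewise by none in replicate 3 or in siMyolinc TDP-43. An island 12.7 kb before its start, intronic by the annotation and inside the span of Hoxa3, also named Hoxa2. There replicate 1 had 14 tags and replicate 2 had 13, among the strongest Hox peaks of either list. Hoxa3, Hoxb2 and Hoxb3 were named in 2, 2 and 6 lists, and Hoxd3 in 6.

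Of the central genes, Hoxc4 was the one Hox gene named in every list. Control TDP-43 replicates 1 to 3 named it with 6, 5 and 2 peaks and siMyolinc TDP-43 with 4. Pol II S2P had 6 in control and 5 after knockdown, MyoD 4 and 7, and Myogenin 6 and 2. Of these 47 peaks 13 lay within 5000 bp of the start. Hoxc8, used in the trunk at brachial to thoracic levels, was named in 6 lists, with 2, 1 and 2 peaks in control TDP-43 and none in siMyolinc TDP-43. Hoxc6 and Hoxb8 were named in 6 lists each, Hoxa5, Hoxb6 and Hoxc5 in 5 each, and Hoxa4, Hoxa6 and Hoxb7 in 4 each. Hoxb5 was named in 3 lists and Hoxb4 in 2. Hoxa7 and Hoxd8 were named in 1 list each, by siMyolinc Pol II S2P and by control MyoD.

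Hoxd4 was without a named peak although peaks lay on it. In the reference table the microRNA gene Mir10b (chr2:74726070-74726137) lies inside the span of Hoxd4 (chr2:74721978-74729160). The span was overlapped by 6 peaks from 5 lists, 1 each from control TDP-43 replicates 1 and 3, siMyolinc TDP-43 and siMyolinc Pol II S2P and 2 from siMyolinc MyoD, and all 6 named Mir10b. The nearest-gene rule therefore sets which genes count as named. The same rule gave 26 of the 31 peaks on the long span of Hoxa3 to other Hox genes and 2 to Hoxa3 itself. Hoxb2, Hoxd8 and Hoxd13 had no peak on their spans in any list, the peaks naming them lying beside the gene.

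Among the posterior genes, Hoxc12, Hoxb13 and Hoxd12 were named most widely, followed by Hoxc13 and Hoxa11. Hoxc12, the neighbour of the noncoding gene Hotair, was named in 9 lists, with 2 peaks in each control TDP-43 replicate and none in siMyolinc TDP-43. It had 2 and 3 peaks in control and siMyolinc Pol II S2P, 2 and 4 in MyoD and 1 and 1 in Myogenin. Of its 19 peaks 18 lay within 5000 bp of its start. Hoxc13, a regulator of hair and nail keratins, was instead named mainly by the other antibodies: 1 peak in control TDP-43 replicate 1, 1 in siMyolinc TDP-43, 9 in siMyolinc Pol II S2P, 6 and 7 in MyoD and 11 and 3 in Myogenin. It is the end gene with the longest reach, and 30 of its 38 peaks were beyond 5000 bp. Hoxb13, known for its role in prostate and tail, was named in 8 lists and had 6 of its 17 peaks in control Myogenin. Hoxd12, a digit and distal limb gene, was named in 8 lists by 9 peaks, all within 1801 bp of its start. Hoxa11 was named in 7 lists by 8 peaks and Hoxa13 in 6 lists by 10 peaks. Hoxd10 was named in 6 lists by 9 peaks, all within 4140 bp. Hoxb9 and Hoxc9 were named in 5 lists each, Hoxc10, Hoxd9 and Hoxd13 in 4 each and Hoxd11 in 3. Hoxa10 and Hoxc11 were named in 2 lists each, and Hoxa9, which is raised in aged muscle stem cells, in 1.

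Promoter-class peaks at Hox genes numbered 41 over the 10 lists, at 22 genes, with 5 to 37 tags. The 3 control TDP-43 lists held 13 such peaks at 9 genes, with 5 to 9 tags each. Replicate 1 had Hoxb7, Hoxb9, Hoxc4, Hoxd10 and Hoxd13, replicate 2 had Hoxa2, Hoxc4, Hoxd1 and Hoxd10, and replicate 3 had Hoxc4, Hoxc8, Hoxd3 and Hoxd10. Only Hoxc4 and Hoxd10 were in more than 1 of the 3, and both were in all. The siMyolinc TDP-43 list had 2, with 6 and 8 tags, the latter at Hoxa11, and neither gene had a promoter-class peak in a control. Control Pol II S2P had 1, at Hoxc4, with 7 tags. The siMyolinc Pol II S2P list had 8, from 6 to 25 tags, led by Hoxd13 at 898 bp before the start. MyoD had 3 in control, with 6 to 7 tags, and 10 after knockdown, with 7 to 33. Control Myogenin had 4 with 15 to 37 tags, at Hoxa6, Hoxa10 and Hoxa13.

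Counted over the 300 bp promoter windows themselves, control TDP-43 replicates 1 to 3 overlapped 2, 4 and 3 of the 24 Hox windows. Of all windows they overlapped 3.84, 1.60 and 1.31%. The siMyolinc TDP-43 list overlapped none of the 24, where it overlapped 1.53% of all. Pol II S2P overlapped 1 window in control, against 1.21% of all, and 3 after knockdown, against 5.06%. MyoD overlapped 1 in control (2.03% of all) and 1 after knockdown (5.01%), and Myogenin 1 in control (3.20%) and none after knockdown (1.14%). With 24 windows these counts are small, and the MyoD, Myogenin and Pol II S2P counts were at most 3. The Hoxd10 window with its 2 E-boxes was overlapped by the 3 control TDP-43 lists and by control MyoD, the one Hox window of that list. The control MyoD peak (chr2:74691642-74691872, 6 tags, place 58258) holds CACGTG and ends before CATGTG. The window holds no CAGCTG, and a link between E-boxes and overlap was not tested. The Hoxc4 window, which holds no E-box, was overlapped by the same 3 lists and by control Pol II S2P.

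The overlap among the 3 control TDP-43 libraries was higher for Hox peaks than for their peaks at large. Of replicate 1, 6 of 42 Hox peaks (14.3%) were overlapped by both other replicates, against 5.27% of all its peaks. Another control overlapped 17 of 42 Hox peaks of replicate 1 (40.5%, all peaks 19.0%), 18 of 27 of replicate 2 (66.7%, all 50.3%) and 11 of 17 of replicate 3 (64.7%, all 56.3%). Pair by pair, the interval excluded the share of all peaks only for replicate 1 by replicate 2 (23 to 50.8% against 13.4%). It included that share in the other pairs, such as replicate 3 by replicate 1 (26.2 to 69% against 39.8%), so the excess there was within counting error. Lists of 1 condition were called against IgG and may share that library, which lists of 1 antibody and lists of different antibodies then have in common. Merged across lists, the 365 Hox peaks formed 275 sites, of which 225 were in 1 list, 27 in 2, 12 in 3, 7 in 4, 2 in 5 and 2 in 6. There were 20 sites with 2 or more control TDP-43 libraries: 8 in Hoxc, 5 in Hoxa, 5 in Hoxd and 2 in Hoxb. Of these, 6 held a peak annotated to a CpG island, 2 were in a promoter and 12 lay within 5000 bp of the start.

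Sites of all 3 control TDP-43 libraries numbered 7. The Hoxc4 promoter (peak of replicate 1 at chr15:103034172-103034420) had 7, 8 and 8 tags in replicates 1 to 3 and 7 in control Pol II S2P. The Hoxd10 promoter (chr2:74691602-74691850) had 9, 7 and 5 tags and 6 in control MyoD. Both sets of values lie within each other's counting intervals. A CpG island 52 kb downstream of the Hoxc4 start (chr15:103086247-103086495 in replicate 1) had 7, 7 and 8 tags, and 7 in control Pol II S2P. An intergenic site 5.4 kb past the Hoxc8 start had 13, 6 and 12 tags and no listed peak with any other antibody. An intergenic site 4.1 kb before Hoxb13 had 13, 5 and 6 tags and likewise no other listed peak. A site 2.6 to 2.7 kb past the Hoxc12 start had 8, 6 and 10 tags and, in control Myogenin, 22. The site at Hoxd12, between 318 and 679 bp past the start, had 10, 9 and 8 tags. It also had 9 in siMyolinc TDP-43, 5 in control Pol II S2P and 13 in control Myogenin, although not every pair of these peaks overlaps directly. It was the one of the 7 with a siMyolinc TDP-43 peak.

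**Figure D5:**
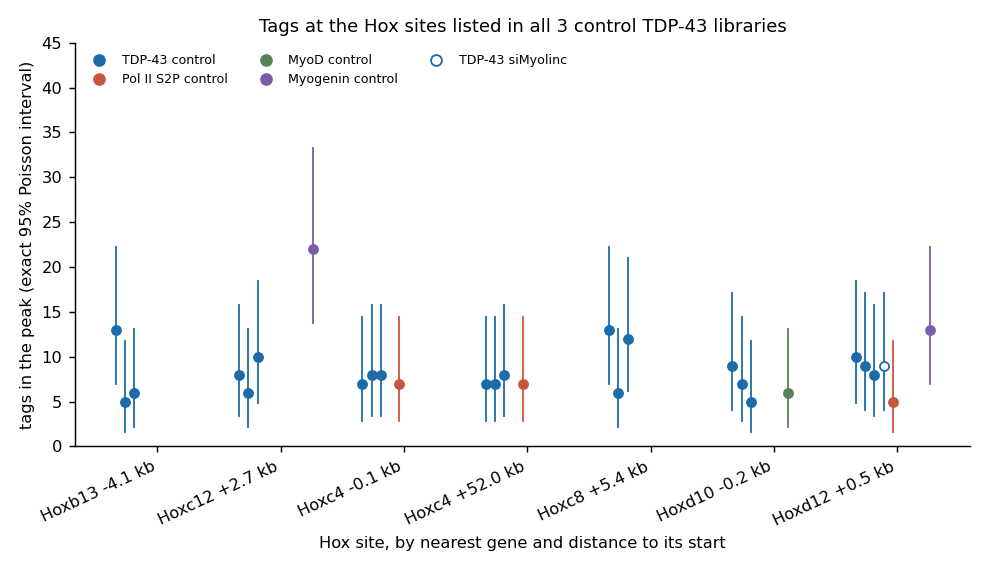
Tags in the peaks at the 7 Hox sites listed in all 3 control TDP-43 libraries (y axis, with exact 95% Poisson intervals); points of a site stand side by side in list order, filled for controls and open for siMyolinc TDP-43. The control TDP-43 values run from 5 to 13 tags, and a siMyolinc TDP-43 point appears at Hoxd12 alone.

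The other 13 recurrent sites were in 2 control TDP-43 libraries. An exon site of Hoxc12, 1.4 to 1.5 kb past the start at chr15:102938183-102938479, was found most widely, in 6 lists. It had 7 and 10 tags in control TDP-43 replicates 2 and 3, 7 and 21 in control and siMyolinc Pol II S2P, and 10 and 22 in control and siMyolinc MyoD. No other Hox site was listed for MyoD and Pol II S2P in both conditions. The site 26 kb past Hoxc4 had 9 and 5 tags in replicates 1 and 2, 6 in siMyolinc TDP-43, 5 in control Pol II S2P and 21 in control Myogenin. The site 2.0 to 2.1 kb before Hoxc5, a gene of the neck and upper trunk, had 6 and 9 tags in replicates 2 and 3, with 5 and 14 in control and siMyolinc Pol II S2P. Hoxa2 was the gene named at 3 of the 13, with 11 and 8, 15 and 6, and 14 and 13 tags in replicates 1 and 2. The sites with 15 and 6 and with 14 and 13 tags lie inside the span of Hoxa3. The site about 1.9 to 2.0 kb before Hoxa5, which is known for lung and neck patterning, had 7 and 6 tags in the same replicates and 13 in siMyolinc Pol II S2P. Near Hoxd10, a site 4.1 kb before the start had 7 and 5 tags and 5 in control Pol II S2P. Near Hoxb7 a site had 6 and 9 tags in replicates 1 and 3 and no other listed peak. Control Pol II S2P had a peak at 9 of the 20 recurrent sites, siMyolinc Pol II S2P at 3, control MyoD and control Myogenin at 4 each, siMyolinc MyoD at 3, siMyolinc Myogenin at 1 and siMyolinc TDP-43 at 2.

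The overlap between control TDP-43 and control Pol II S2P was higher for Hox peaks than for all peaks in both directions, in part within counting error. Of the 16 Hox peaks of control Pol II S2P, 8, 10 and 6 (50.0, 62.5 and 37.5%) were overlapped by TDP-43 replicates 1 to 3, where 33.3, 19.4 and 16.4% of all its peaks were. The intervals were 28 to 72, 38.6 to 81.5 and 18.5 to 61.4%, and that for replicate 1 included the share of all peaks. Of the TDP-43 Hox peaks 19.0, 37.0 and 35.3% were overlapped by control Pol II S2P, where 12.0, 19.7 and 21.6% of all peaks were. The intervals were 9.98 to 33.3, 21.5 to 55.8 and 17.3 to 58.7%, and those for replicates 1 and 3 included the share of all peaks. Control MyoD overlapped 4.76, 18.5 and 17.6% of the TDP-43 Hox peaks (2.76, 3.42 and 3.61% of all), and control Myogenin 9.52, 18.5 and 11.8% (5.33, 6.01 and 6.22%). With MyoD the interval for replicate 1 (1.32 to 15.8%) included the share of all peaks. With Myogenin those for replicates 1 and 3 did (3.77 to 22.1 and 3.29 to 34.3%). The Hox value was thus above that of all peaks in each of these comparisons, on 16 to 42 Hox peaks, and the part played by a shared IgG library was not tested.

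After Myolinc knockdown few Hox positions were listed again with the same antibody. For TDP-43, the siMyolinc list overlapped 4 of 42, 1 of 27 and 2 of 17 Hox peaks of replicates 1 to 3 (9.52, 3.70 and 11.8%), and 5.88, 7.08 and 7.36% of all peaks. The Hox share was above that of all peaks for replicates 1 and 3 and below it for replicate 2. In the other direction replicates 1 to 3 overlapped 20.0, 5.00 and 10.0% of its 20 Hox peaks and 7, 3 and 2.41% of all its peaks. These shares rest on 1 to 4 Hox peaks. There was no listed siMyolinc TDP-43 peak at the Hoxc4 or Hoxd10 promoters, and whether knockdown or the other differences between the libraries account for this was not tested. For Pol II S2P, 3 of 16 control Hox peaks were found again (18.8%, all peaks 10.5%), which is 4.05% of the 74 siMyolinc Hox peaks. For MyoD it was 2 of 36 (5.56%, all 1.77%) and for Myogenin 2 of 53 (3.77%, all 0.355%).

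By gene the conditions overlapped more, for Hox genes and for genes at large. Pol II S2P named 9 Hox genes in both conditions, 1 in control alone and 22 after knockdown alone. MyoD named 16 in both, 5 in control alone and 12 after knockdown alone. Myogenin named 6 in both, 16 in control alone and 2 after knockdown alone. Control TDP-43 replicates 1 to 3 shared 11, 6 and 8 Hox genes with the siMyolinc list, which named 14. Of the Hox genes named in control, 90.0% were named again after knockdown with Pol II S2P, 76.2% with MyoD and 27.3% with Myogenin, where of all protein-coding genes 94.5, 90.0 and 49.2% were. For TDP-43 replicates 1 to 3 the Hox shares were 45.8, 40.0 and 57.1%, against 64.4, 70.1 and 70.8% of all genes. Counted this way, the Hox share was below that of all genes in each of the 6 pairs, on 10 to 24 Hox genes. The other direction differed for TDP-43. Of the 14 Hox genes of the siMyolinc list, 78.6, 42.9 and 57.1% were also named in control replicates 1 to 3. For all genes these shares were 70.4, 41.8 and 34.9%, each below the Hox share. For Pol II S2P, MyoD and Myogenin the Hox share was below that of all genes in this direction too. The siMyolinc Pol II S2P and MyoD lists were longer than the control ones and the siMyolinc Myogenin list shorter. After knockdown the TDP-43 list was longer than those of replicates 2 and 3 and named 14 Hox genes against 15 and 14.

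The strongest Hox peaks differed between lists, also between the replicates of control TDP-43. In control TDP-43 replicate 1 the strongest named Hoxa2 (15 tags, 8.40 to 24.7, chr6:52172533-52172781). That peak, a 5′ UTR by the annotation, lies inside the span of Hoxa3, 7.8 kb before the Hoxa2 start. In the other control TDP-43 lists the strongest were at the Hoxd1 island in replicate 2 (15 tags, place 62 in the list) and at the Hoxc8 site in replicate 3 (12 tags). In siMyolinc TDP-43 the best was 6.9 kb past the Hoxb1 start, with 11 tags (5.49 to 19.7). In siMyolinc Pol II S2P it was 48 kb past the Hoxb1 start, with 28 tags. Control MyoD had its best Hox peak 15.7 kb past the Hoxc4 start, in an ID_B1 repeat, with 22 tags and place 89. In siMyolinc MyoD it was at Hoxc5 with 47 tags. Control Myogenin had its best at the promoter of Hoxa13, 425 bp before the start (chr6:52261196-52261414, 37 tags, 26.1 to 51.0, place 545). In siMyolinc Myogenin it was in an intron by the annotation, 4.4 kb past the Hoxc13 start (chr15:102925450-102925524, 296 tags, place 186). Each list therefore led with a different position, and Hoxc genes led in 5 of the 10.

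Other genes tied to the Hox system, taken from fixed lists, were also named by every list, and their counts are to be read against the shares of all genes given above for each list (46.5, 25.4, 21.0 and 42.5% for the TDP-43 lists). Of the 9 TALE cofactor genes (Pbx, Meis and Pknox, partners of Hox proteins on DNA), control TDP-43 replicates 1 to 3 named 8, 4 and 2 and siMyolinc TDP-43 named 6. Pol II S2P named 7 and 9, MyoD 8 and 7, and Myogenin 8 and 8, in control and after knockdown. Meis1 took 33 of the 87 TALE peaks in control Myogenin, and this was not particular to that list. It took 9 of 22 in control TDP-43 replicate 1, 21 of 70 in control MyoD and 22 of 88 in siMyolinc Pol II S2P. In siMyolinc Myogenin it took 3 of 17, and control TDP-43 replicate 3 did not name it. Of 8 Evx and ParaHox genes, relatives of the Hox genes, the TDP-43 lists named 7, 2, 4 and 5, Pol II S2P 5 and 8, MyoD 6 and 7, and Myogenin 7 and 2. Of 24 Polycomb and Trithorax genes, the silencers and activators of Hox clusters, the TDP-43 lists named 15, 11, 7 and 12, Pol II S2P 9 and 24, MyoD 20 and 24, and Myogenin 23 and 12. Cbx7, a Polycomb chromodomain protein, had 6, 4 and 3 peaks in control TDP-43 replicates 1 to 3 and 2 in siMyolinc TDP-43.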

How the data were processed

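ChIP-seq libraries of C2C12 cells were analysed from the peak lists that the authors deposited, 1 list for each of 10 libraries; the 4 input and IgG samples were not analysed as signal. Each list was called against IgG and annotated with HOMER on mm10, per the file headers and, for tool and build, the submitters' processing notes; the version, the aligner and how peaks were called are not stated in what was used here. The deposited peak score, per the file headers, was used within a list alone, and the deposited focus ratio, a fraction from 0 to 1, was not used. The 1% highest scores were set aside, and 100% of the others lay within 0.05 score units of a whole multiple of the step. Finding the step was tested on simulated data. The scaling to 10000000 tags is HOMER's default and is stated in no header or label.

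Hox peaks were counted per list, beside the same count over all named peaks or over 21900 protein-coding genes, with python 3.11.15, pandas 2.3.3, numpy 2.4.6 and scipy 1.17.1. Overlap means 1 bp or more. Positions are 1-based, mm10. Values of 1 Hox gene are not reported here, though totals include it. The members, gene lists and settings were chosen with earlier results of these data known. Full values went to the genes in most lists, the sites of 2 or more control TDP-43 libraries, the best Hox peak of each list and promoter-class peaks of TDP-43. The alternatives were peaks at or above the median score, lists cut to the best 8162 peaks, no repeats, a 5000 bp limit, cluster windows, other overlap rules and leaving out each replicate. Everything is a description, with 95% intervals. Depth is limited: peaks held a median of 6 to 8 tags in control TDP-43.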

Additional observations from a re-analysis of the deposited data

Results flagged for a closer look

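After Myolinc knockdown the share of Hox peaks was lower for TDP-43 and Pol II S2P, while the changes for MyoD and Myogenin were slightly above 0 and within counting error. The change in Hox peaks per 1000 named peaks, siMyolinc minus control, was -1.22 for TDP-43, below each of its 3 control libraries. It was -0.856 for Pol II S2P (95% interval -1.80 to -0.259). It was 0.12 for MyoD (-0.113 to 0.337) and 0.126 for Myogenin (-0.162 to 0.578), intervals that include 0, and both were 0 in lists cut to one length. These intervals reflect the counting of peaks alone and do not measure variation between libraries, so they are no test of knockdown. For TDP-43 and Pol II S2P the siMyolinc library was also the deeper one, so knockdown and depth cannot be told apart. The difference between antibodies was not tested, and each siMyolinc group is 1 library.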

How the results depend on the processing

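Of 56 recomputed values, 41 stayed within the replicate spread, the counting interval or 1.5 times the main count, and none of the 56 changed sign. The change in Hox peaks per 1000 named peaks for TDP-43 (-1.22) was -4.16 within 5000 bp of starts. The change in Hox genes named for TDP-43 (-3.67) was -0.333 for peaks whose score reached the list's median, -7.33 in lists cut to one length, -10 within 5000 bp, and between -5.5 and -0.5 when each control was left out in turn; it was -0.5 without replicate 1, the longest control list. In lists cut to one length that change was 0 in Pol II S2P (21), 1 in MyoD (7) and -3 in Myogenin (-14), a setting that removes the difference in list length; for peaks reaching the median score it was 1 in MyoD. The change in the CpG island share for TDP-43 (-14.1 percentage points) was -3.04 within 5000 bp and -26.6 over intronic and intergenic peaks, a denominator chosen after seeing the data. The 6 Hox peaks of replicate 1 overlapped by both other controls became 2 at or above the median score. The 7 control TDP-43 Hox peaks overlapped after knockdown became 4 at 50% overlap, 13 with 500 bp added on each side and 3 at or above the median. Without the 2 lists of 75 bp peaks, also chosen after seeing the data, 37 Hox genes were named in place of 38. For values without a stated reason the cause was not tested. No paired analysis was possible because the labels give the groups no shared replicate numbers. Depth limits all of these: control TDP-43 Hox peaks held 5 to 15 tags.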

Other observations

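Genes other than Hox genes were named by some of the peaks inside the cluster windows. Control TDP-43 replicates 1 to 3 had 8, 6 and 7 such peaks of 42, 28 and 21 in the windows, and siMyolinc TDP-43 had 5 of 16. Mir10a, a microRNA gene beside Hoxb4, was named by 2, 1 and 1 peaks in control TDP-43 replicates 1 to 3 and by none in siMyolinc TDP-43. Its peaks at chr11:96314885-96315133 in replicate 1 and chr11:96310672-96310920 had 18 and 17 tags, above the 15 tags of the strongest Hox peak of that list. Hotair, a noncoding gene between Hoxc11 and Hoxc12, was named by 1 peak each in siMyolinc TDP-43 (10 tags), siMyolinc Pol II S2P (16 tags) and control Myogenin (11 tags), and by 2 in siMyolinc Myogenin (215 and 176 tags). The peaks at the end of Hotair in siMyolinc TDP-43 (chr15:102943353-102943569) and siMyolinc Pol II S2P (chr15:102943253-102943471) overlap, and no control TDP-43 list named it.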
